A study of Mus musculus with 2 samples.

Results

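Itgam and Ptprc encode Cd11b and Cd45, the surface proteins on which the cells of this experiment were sorted, and they are described here with the integrin genes Itgb2, Itgb1, Itgb5, Itgav, Itga4, Itga6 and Itgal. The 9 genes were taken by symbol from the 31053 features of the count matrices. The cells came from the hypothalamic and thalamic region of E15.5 mouse embryos of the CD1 background, for which no transgene is named. The control library pooled 10 embryos of 1 wild-type dam. The stressed library pooled 5 embryos of 1 CD1 dam that was kept at 4 °C for 30 min per day over 5 days, from E11.5 on. Cd11b-PE and Cd45-FITC double positive cells of each pool were sorted, and each pool gave 1 droplet library. There is therefore no replicate check and no test between conditions, and dam, pool and library cannot be told apart from the stress. The intervals printed after values are at 95% and account for counting error alone.

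The libraries held 1156 control and 1467 stressed barcodes with 2833015 and 6582188 UMIs (unique molecules counted) and medians of 1947.5 and 3767 UMIs per barcode. All cells are labelled microglia. Of the 1068 and 1407 cells kept, 683 (64.0%) and 1140 (81.0%) were microglia-like by their marker genes. Border-associated macrophage-like cells numbered 80 and 30, monocyte or granulocyte-like cells 26 and 23, and neural-like cells 215 (20.1%) and 175 (12.4%). A cluster of 53 and 33 cells led by haemoglobin and vessel genes was left unnamed. Classes were clusters built without the 9 genes, and a cell also had to hold at least 2 UMIs of the markers of its class. The libraries shared 13 barcodes, each with 502 to 735 UMIs in 1 library and 2577 to 28384 in the other. Of the 13 copies kept, 12 were neural-like, so some of the results in neural-like cells are also given without them. A Xist UMI with no Y-linked UMI was found in 228 control (33.4%) and 1057 stressed (92.7%) microglia-like cells, and a Y-linked UMI with no Xist UMI in 133 control and 0 stressed cells. The pools thus differed in sex as read from these transcripts, which cannot be told apart from the stress, and ratios within cells with Xist and no Y-linked UMI are given beside the others.

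Integrins are receptors made of an alpha and a beta chain that bind matrix proteins or proteins on other cells. The Itgam product pairs with the Itgb2 product (Cd18) in complement receptor 3, with which microglia take up complement-tagged material, and the Itgal product pairs with the same beta chain in a receptor for Icam proteins. The beta chain of Itgb1 pairs with the alpha chains of Itga4, which binds Vcam1 and fibronectin, and of Itga6, which binds laminin. The beta chain of Itgb5 pairs with that of Itgav in a vitronectin receptor. Ptprc is a receptor tyrosine phosphatase of blood-lineage cells that acts on Src family kinases. Itgam, Itgb2, Itgal and Ptprc are known as leukocyte genes, whereas Itgb1, Itgb5, Itgav and Itga6 are used by many cell types, neural progenitors among them.

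In the GENCODE M21 annotation of GRCm38 (mm10), Itgam (ENSMUSG00000030786) lies on the plus strand of chromosome 7 from 128062640 to 128118491, and Ptprc (ENSMUSG00000026395) on the minus strand of chromosome 1 from 138062861 to 138175708. Itgal is also on chromosome 7, Itgb2 on 10, Itgb1 on 8, Itgb5 on 16, and Itgav, Itga4 and Itga6 on 2. Gm49368 overlaps Itgam on the same strand and was counted separately, with 16 control and 25 stressed UMIs. The bases before the RefSeq starts of both sort genes (GRCm38.p6) are shown because their levels were highest in the same microglia-like cluster, as described below. They run 5′ to 3′ on the gene's strand from 250 to 2 bases before the start. Neither window overlaps an annotated exon, and that of Ptprc lies within the GENCODE gene, in intron sequence. Capitals mark GAGGAA, a core sequence bound by ETS-type factors such as PU.1 (Spi1), or its reverse complement TTCCTC.
Itgam chr7:128062390-128062638 (+): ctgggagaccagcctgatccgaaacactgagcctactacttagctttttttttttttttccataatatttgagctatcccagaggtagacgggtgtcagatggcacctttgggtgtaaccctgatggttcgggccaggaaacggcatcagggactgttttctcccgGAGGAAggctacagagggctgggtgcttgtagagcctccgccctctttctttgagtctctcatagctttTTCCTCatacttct
Ptprc chr1:138175307-138175555 (-): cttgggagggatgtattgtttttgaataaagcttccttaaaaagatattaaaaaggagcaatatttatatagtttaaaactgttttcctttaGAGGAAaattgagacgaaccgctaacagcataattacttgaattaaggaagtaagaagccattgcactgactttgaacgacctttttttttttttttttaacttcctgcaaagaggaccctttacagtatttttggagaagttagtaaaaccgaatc

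GAGGAA began 84 bases before the start of Itgam and 158 before that of Ptprc, and the Itgam window held TTCCTC as well. A second RefSeq start of Ptprc had no match in its window. Itgb5 was highest in the same microglia-like cluster as well, and its window, not shown here, had no match. On either strand the motif occurred in 23.1% of 32851 windows of this length and in 25.7% of 27025 genes. Of the 9 genes, 6 had a RefSeq promoter entry and 4 of these (Itgam, Ptprc, Itgav and Itgb1) held it. The matches describe the letters alone.

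Both sort genes were found in microglia-like cells at levels that the counts do not separate between the libraries. Itgam had 235 UMIs in control cells, 131 CPM (114 to 148), where CPM is the UMI count scaled to a common class total and the interval is an exact Poisson interval. In stressed cells it had 583 UMIs, 113 CPM (104 to 123). The log2 ratio of stressed over control was -0.20 (-0.42 to 0.02), and this exact interval includes 0. Ptprc had 274 control UMIs, 152 CPM (135 to 171), and 713 stressed UMIs, 139 CPM (129 to 149), with a log2 ratio of -0.13 (-0.34 to 0.07). The direction depended on the cells used. With a minimum of 1000 genes and no more than 5% of UMIs from mitochondria the ratios were 0.07 and 0.06. Within cells with Xist and no Y-linked UMI they were 0.14 (-0.24 to 0.53) for Itgam and -0.11 (-0.42 to 0.22) for Ptprc. The sort selected the proteins, so the presence of these transcripts in the sorted cells is not a finding.

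Few cells showed both sort genes at this depth. An Itgam UMI was found in 26.8% of control and 33.4% of stressed microglia-like cells, and a Ptprc UMI in 32.8% and 44.6%, at median depths of 2202 and 3922 UMIs. With each cell thinned to 1000 UMIs, which left out 29 control and 2 stressed cells, the shares were 13.6% (11.1 to 16.5%) and 12.4% (10.5 to 14.4%) for Itgam, with exact binomial intervals, and 16.4% (13.6 to 19.4%) and 13.4% (11.52 to 15.6%) for Ptprc. Neural-like cells, which should lack both, had median depths of 1546 and 3220 UMIs. After the same thinning 0.546% and 1.81% of them had an Itgam UMI, and 0% of 183 control cells (0 cells, set at 3, allow up to 1.64%) and 1.20% of 166 stressed cells a Ptprc UMI.

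Both transcripts were seen together in 65 of 683 control (9.52%) and 204 of 1140 stressed (17.9%) microglia-like cells, and in 2.60% and 2.55% after thinning. The gap between the libraries at full depth was not seen after this thinning, but it was seen in 3 of 4 ranges of depth. Neither transcript was seen in 49.9% and 39.8% of the cells at full depth. In cells of 793 to 2068 UMIs both were seen in 7.99% (5.24 to 11.6%) of control and 5.59% (2.45 to 10.7%) of stressed cells, and from there to 3201 UMIs in 7.98% (4.53 to 12.8%) and 15.7% (11.6 to 20.7%). From 3201 to 4828.5 UMIs the shares were 12.5% (7.17 to 19.8%) and 20.2% (16.1 to 24.9%), and in deeper cells 16.1% (8.02 to 27.7%) and 21.8% (17.8 to 26.2%). The intervals of the libraries overlap in each range, and depth can still differ within a range.

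Among the integrins of microglia-like cells, Itga6 had the largest difference of the 6 genes of the set that reached 50 CPM in a library, and was lower in the stressed cells. None of these 6 (Itgam, Ptprc, Itgb1, Itgb5, Itgav and Itga6) differed by 1.5 times, where 4.51% of the 2659 genes at that level did. Itga6, a laminin-binding alpha chain, had 228 UMIs in control cells, 127 CPM (111 to 144), and 444 in stressed cells, 86.4 CPM (78.5 to 94.8), so the intervals of the levels do not overlap. Its log2 ratio was -0.55 (-0.79 to -0.31), and -0.70 (-1.03 to -0.35), past 1.5 times, within cells with Xist and no Y-linked UMI. The median log2 ratio was -0.23 over the 6 genes and -0.06 over the 2659. TMM scaling raised every ratio by 0.11 and DESeq2 scaling by 0.10.

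The other chains with clear counts were close to each other in both libraries or slightly lower in the stressed one. Itgb1, the most widely shared beta chain, had 416 control and 997 stressed UMIs, 231 CPM (209 to 254) against 194 CPM (182 to 206), and a log2 ratio of -0.25 (-0.42 to -0.08). Itgav had 106 and 234 UMIs, 58.9 CPM (48.2 to 71.2) against 45.5 CPM (39.9 to 51.8), and a log2 ratio of -0.37 (-0.71 to -0.03). Within cells with Xist and no Y-linked UMI both intervals included 0, at -0.20 (-0.46 to 0.06) for Itgb1 and -0.33 (-0.84 to 0.22) for Itgav. Under TMM scaling the ratios over all microglia-like cells were -0.14 for Itgb1 and -0.26 for Itgav. This shift of 0.11 is larger than the distance of either upper limit, -0.08 and -0.03, from 0.

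Itgb5, the partner chain of Itgav, had 572 and 1537 UMIs, 318 CPM (292 to 345) against 299 CPM (284 to 314), and its log2 ratio of -0.09 (-0.23 to 0.05) turned to 0.02 under TMM and DESeq2 scaling. Itgb2, the partner chain of Itgam, had 57 and 189 UMIs, 31.7 CPM (24.0 to 41.0) against 36.8 CPM (31.7 to 42.4), and a log2 ratio of 0.22 (-0.22 to 0.67). Itga4 and Itgal were rare in this class. Itga4 had 9 control and 27 stressed UMIs, with a log2 ratio of 0.07 (-1.06 to 1.34), and Itgal had 13 and 32, with -0.21 (-1.18 to 0.84), so no direction was detectable at this depth.

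**Figure D1:**
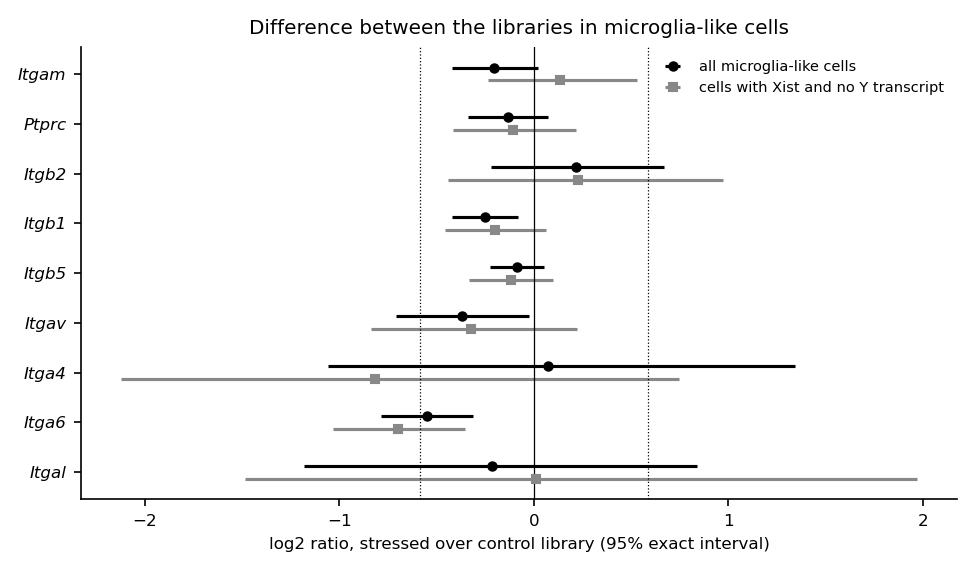
Log2 ratio of stressed over control for each gene in microglia-like cells, for all cells and for cells with Xist and no Y-linked UMI, with exact 95% intervals. Dotted lines mark 1.5 times; Itga6 lies at -0.55 and -0.70, and the interval of Itgam includes 0 in both sets of cells.

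Within the microglia-like class, Itgam, Ptprc and Itgb5 varied over the clusters more than they did between the libraries. The 4 clusters were led by Gpnmb and Spp1 (20.1% of control and 18.2% of stressed microglia-like cells), by Tmem119 and P2ry12 (33.8% and 33.2%), by Crybb1 and Entpd1 (29.3% and 29.1%), and by the cell cycle genes Mki67 and Top2a (16.8% and 19.4%). Itgam was highest in the Tmem119-led cluster, with 237 CPM (191 to 289.9) in control and 208 CPM (182 to 237) in stressed cells. It had 169.7 and 131 CPM in the Crybb1-led, 73.4 and 68.7 CPM in the Gpnmb-led and 58.7 and 64.2 CPM in the Mki67-led cluster. The log2 ratio of the Tmem119-led cluster over the other microglia-like cells was 1.23 (0.84 to 1.62) in control and 1.24 (0.99 to 1.49) in stressed cells.

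Ptprc had 232 and 216 CPM in the Tmem119-led, 181 and 138 CPM in the Crybb1-led, 119.98 and 125 CPM in the Mki67-led and 96.1 and 92.7 CPM in the Gpnmb-led cluster. Itgb5 had 496 and 509 CPM in the Tmem119-led and 131 and 162 CPM in the Gpnmb-led cluster, and the log2 ratio of the latter over the other cells was -1.63 (-1.998 to -1.28) and -1.11 (-1.32 to -0.91). These 3 genes were higher by 1.5 times in the Tmem119-led cluster than in the other microglia-like cells in both libraries, 3 of 6 genes of the set in each, where 13.3% and 8.7% of all genes tested were. They were lower by 1.5 times in the Gpnmb-led cluster, 3 of 6 in control and 3 of 5 in stressed cells, where 13.9% and 9.82% of all genes were. In the Mki67-led cluster Itgam was lower, 1 of 6 and 1 of 5, where 7% and 4.34% were.

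Clusters were built from other genes of these same cells, so the cluster levels are a description with no test. Median depth was 1575 and 2645 UMIs in the Tmem119-led and 4033 and 6470.5 UMIs in the Gpnmb-led cluster, and its part in these levels was not tested. After thinning to 1000 UMIs, Itgam was seen in 19.0% and 19.4% of the Tmem119-led and in 8.03% and 7.69% of the Gpnmb-led cells. For reference, 10 macrophage core genes (C1qa, C1qb, C1qc, Fcer1g, Tyrobp, Laptm5, Csf1r, Ctss, Cd53 and Aif1) summed to 23695 and 23237 CPM in the Tmem119-led and to 17638 and 18505 CPM in the Gpnmb-led cluster.

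Itgb1, Itgav and Itga6 varied less over the clusters. Itgb1 ranged over the clusters from 187 to 275 CPM in control and from 185 to 211 CPM in stressed cells, and Itgav from 56.0 to 62.9 CPM and from 37.5 to 55.3 CPM. Itga6 ranged from 115 to 144 CPM in control and from 68.0 to 111 CPM in stressed cells, and was lower in the stressed library in each of the 4 clusters. Its log2 ratio of stressed over control was -0.78 (-1.25 to -0.31) in the Gpnmb-led, -0.57 (-1.06 to -0.06) in the Crybb1-led, -0.59 (-1.07 to -0.10) in the Mki67-led and -0.31 (-0.79 to 0.18) in the Tmem119-led cluster, where the interval includes 0.

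**Figure D2:**
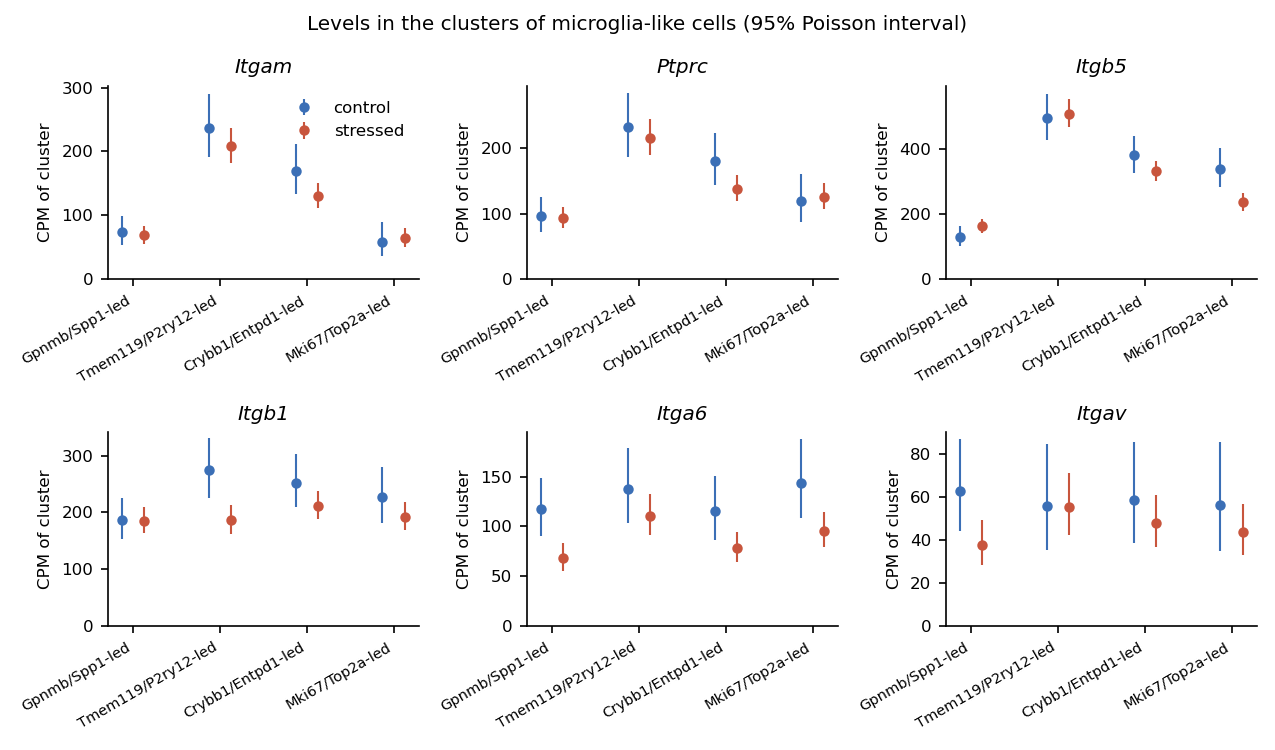
Level in CPM of genes of the set in the 4 clusters of microglia-like cells, named by leading genes, for the control and stressed library, with 95% Poisson intervals. Itgam, Ptprc and Itgb5 are highest in the Tmem119-led cluster of both libraries, and Itga6 is lower in the stressed library in each cluster.

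Border-associated macrophage-like cells, whose type lines the meninges and vessels, had Ptprc in both libraries and little Itgam in the control. Itgam had 7 UMIs in 80 control cells, 22.4 CPM (9.02 to 46.2), and 20 in 30 stressed cells, 86.6 CPM (52.9 to 134), of which 8 lay in 1 cell. Against microglia-like cells of the same library the log2 ratio was -2.54 (-3.87 to -1.48) in control and -0.39 (-1.11 to 0.25) in stressed cells. Itgb5 was lower than in microglia-like cells as well, with 83.3 CPM (54.4 to 122) and 178 CPM (127 to 241) and log2 ratios of -1.93 (-2.56 to -1.37) and -0.75 (-1.24 to -0.31). At 2 times, 2 of 6 genes of the set (Itgam and Itgb5) were lower than in microglia-like cells in the control library, where 10.8% of all genes were, and 0 of 5 in the stressed library, where 6.13% were. In the control library Itgam reached 50 CPM on the microglia-like side alone, so it could be counted only as lower. The difference between the libraries in these counts was not tested. Thinned to 1000 UMIs, 2.50% (0.304 to 8.74%) of control and 10.0% (2.11 to 26.5%) of stressed cells had an Itgam UMI, with intervals that overlap.

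Ptprc had 109 CPM (75.4 to 152) in control and 108 CPM (70.1 to 159.8) in stressed border-associated cells, and Itgb1 157 and 152 CPM. Itga4, the alpha chain that binds Vcam1, had 13 control UMIs, 41.6 CPM (22.2 to 71.2), with a log2 ratio over microglia-like cells of 3.06 (1.72 to 4.46). In stressed cells it had 3 UMIs and a ratio of 1.31 (-1.06 to 3.01). Itgal had 8 UMIs in control and 0 in stressed cells, where a count of 0, set at 3 counts, allows up to 12.99 CPM. Between the libraries 3 of 6 genes differed by 1.5 times, Itgam and Itgb5 higher and Itgav lower in stressed cells, where 28.4% of all genes did.

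Monocyte or granulocyte-like cells, led by S100a8 and S100a9, had the highest levels of Ptprc, Itgb2, Itga4 and Itgal of the 5 groups of cells. Their intervals overlap the next highest group for Itgb2 in both libraries and for Itga4 and Itgal in the control library. Ptprc had 429.8 CPM (281 to 629.8) in 26 control and 269.6 CPM (184 to 381) in 23 stressed cells, with log2 ratios over microglia-like cells of 1.498 (0.86 to 2.08) and 0.96 (0.40 to 1.47). Itgal, of the leukocyte receptor for Icam proteins, had 7 and 17 UMIs, 116 CPM (46.5 to 238) and 143 CPM (83.4 to 229), and log2 ratios of 4.00 (2.44 to 5.43) and 4.52 (3.58 to 5.42). Itga4 had 6 and 28 UMIs, 99.2 CPM (36.4 to 216) and 236 CPM (157 to 341), and log2 ratios of 4.31 (2.54 to 5.96) and 5.49 (4.67 to 6.31). These alpha chains were the 2 genes of the set that were higher by 4 times, of 8 tested in control and 9 in stressed cells, where 6.9% and 6.09% of all genes were. Microglia-like cells had 5.00 and 5.25 CPM of Itga4 and 7.22 and 6.23 CPM of Itgal, below the minimum of 50 CPM. Both genes could thus be counted only as higher. Lower by 4 times were 2 of 8 in control (Itgb1 and Itga6) and 1 of 9 in stressed cells (Itgb5), where 7.99% and 4.99% were. These genes reached 50 CPM there on the microglia-like side alone, so they could be counted only as lower.

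Itgam had 99.2 CPM (36.4 to 216) and 126 CPM (70.7 to 208) in these cells, intervals that overlap those of microglia-like cells. Itgb2 had 49.6 CPM (10.2 to 145) and 109.5 CPM (58.3 to 187), with log2 ratios over microglia-like cells of 0.65 (-1.67 to 2.27) and 1.57 (0.64 to 2.38). Itgb1 had 49.6 and 101 CPM, Itgb5 82.7 and 42.1 CPM, and Itga6 1 and 3 UMIs. Between the libraries 5 of 8 genes differed by 1.5 times, where 51.6% of all genes did.

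**Figure D3:**
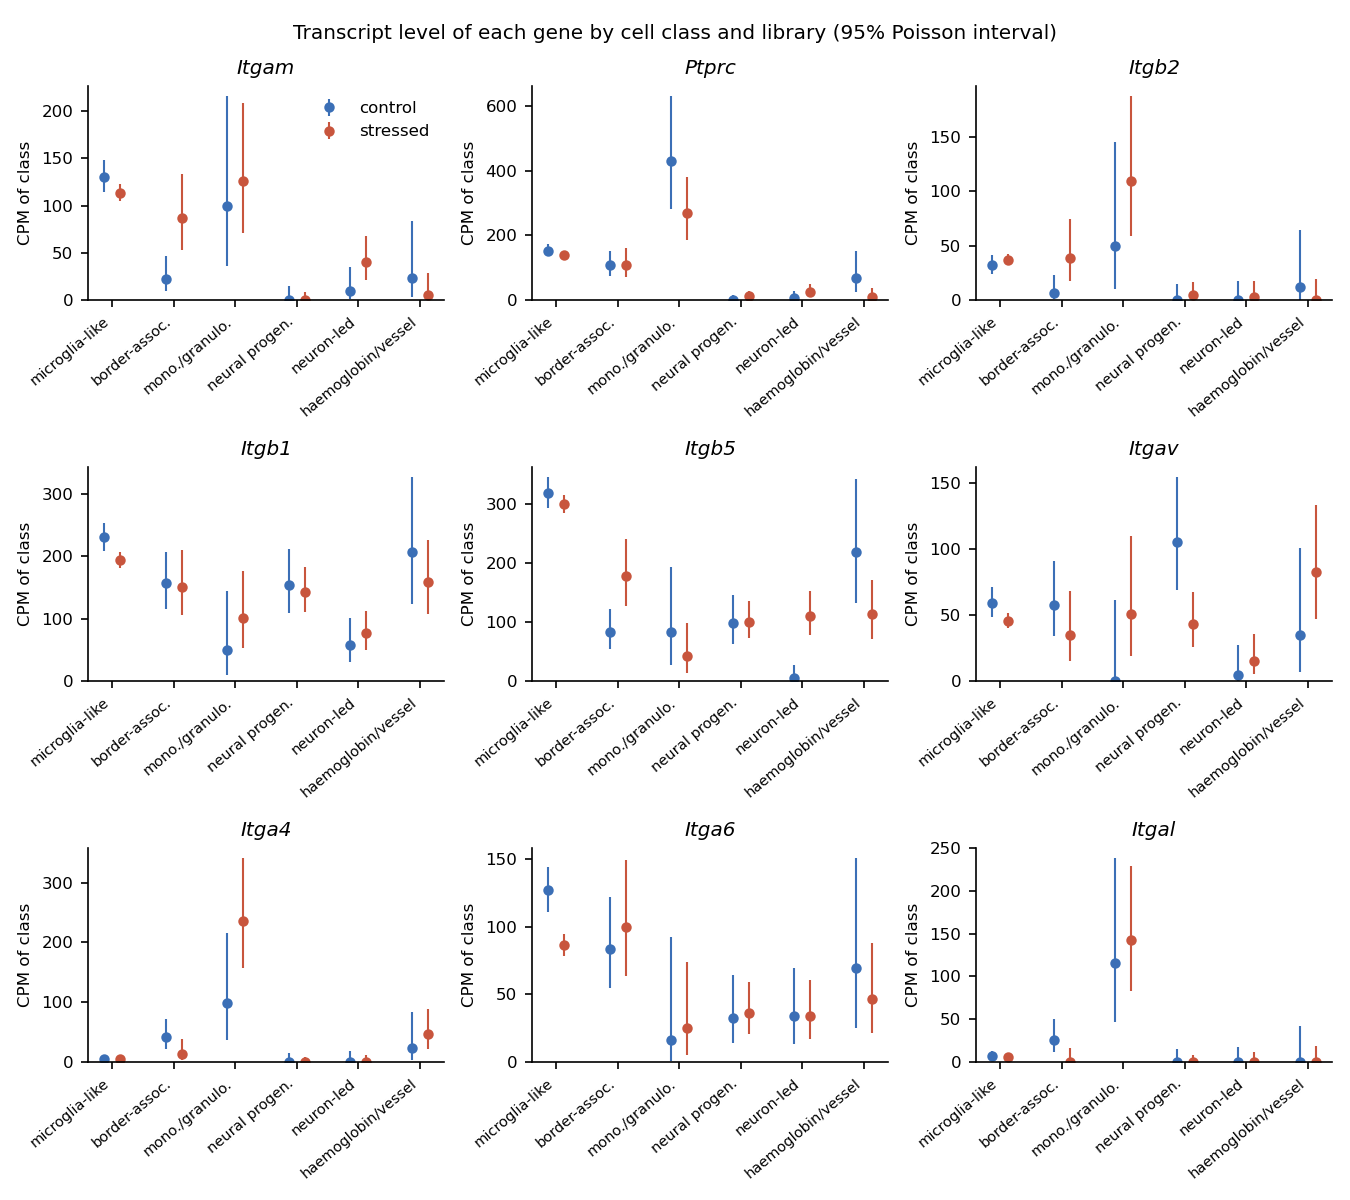
Level in CPM of the 9 genes by group of cells for the control and stressed library, with 95% Poisson intervals; neural-like cells are split into progenitor-led and neuron-led cells. Itgam, Itga4 and Itgal are at 0 in progenitor-led cells of both libraries, where Itgb1, Itgb5 and Itgav are not.

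Neural-like cells delivered by the sort had Itgb1, Itgb5, Itgav and Itga6 but few UMIs of the sort genes, most in stressed neuron-led cells. Itgam had 2 UMIs in 215 control cells, 4.40 CPM (0.533 to 15.9), and 13 in 175 stressed cells, 17.0 CPM (9.05 to 29.1). Ptprc had 1 and 13 UMIs, 2.20 CPM (0.0557 to 12.3) and 17.0 CPM (9.05 to 29.1). Itgb2 had 0 and 3 UMIs, and Itga4 and Itgal had 0 in both libraries. The log2 ratio over microglia-like cells was -4.89 (-7.94 to -3.02) and -2.74 (-3.66 to -1.95) for Itgam, and -6.11 (-11.42 to -3.62) and -3.03 (-3.95 to -2.25) for Ptprc. At 4 times, 3 of 6 genes of the set were lower in the control library (Itgam, Ptprc and Itgb5) and 2 of 5 in the stressed library (Itgam and Ptprc), where 12.8% and 9.37% of all genes were. Itgam and Ptprc reached 50 CPM on the microglia-like side alone, so they could be counted only as lower. The 2 control and 13 stressed Itgam UMIs all lay in neuron-led cells, at 9.64 and 39.8 CPM. Ptprc had 1 and 8 UMIs in neuron-led and 0 and 5 in progenitor-led cells. In neuron-led over microglia-like cells the log2 ratio of Itgam was -3.76 (-6.81 to -1.89) in control and -1.51 (-2.43 to -0.72) in stressed cells. At full depth Itgam or Ptprc was seen in 1 of 130 control (0.769%) and 10 of 99 stressed (10.1%) neuron-led cells. The median depths of these cells were 1447 and 2920 UMIs. After the thinning used above, the shares were 0.935% (0.0237 to 5.10%) of 107 control and 3.26% (0.678 to 9.23%) of 92 stressed neuron-led cells. These intervals overlap.

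The few UMIs of the sort genes lay in neural-like cells that also held macrophage transcripts. The 10 macrophage core genes summed to 1.23% of the microglia-like level in control and 12.4% in stressed neural-like cells. There were 3 control and 33 stressed cells with 3 or more core UMIs, and they held every UMI of Itgam, Ptprc and Itgb2 in the class. These cells also held 52.3% and 96.1% of its core UMIs, so the core ratio gives few or no UMIs of these genes elsewhere. No such UMI was found in the 166 control and 87 stressed cells with no core UMI. There 0 cells (set at 3) allow up to 1.81% and 3.45% with a UMI. None was found in the 46 and 55 cells with 1 or 2 core UMIs either, where the limits are 6.52% and 5.45%. Median depth was 1514 and 2394 UMIs in the cells with no core UMI and 2853 and 5481 UMIs in those with 3 or more. Of the 33 stressed cells 3 were among the 3.5% of cells with the highest doublet scores. Scaled from microglia-like cells by the core genes, 10.8 UMIs of Itgam, 13.2 of Ptprc and 3.49 of Itgb2 would be counted in stressed neural-like cells, beside the 13, 13 and 3 found. The source of these UMIs was not tested.

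Itgb1, Itgb5, Itgav and Itga6 exceeded that ratio in the neural-like class as a whole. Itgb1 had 50 control UMIs, 110.0 CPM (81.7 to 145), where the core ratio gives 1.29, and 88 stressed UMIs, 115 CPM (92.2 to 142), where it gives 18.4. Cells with no core UMI held 35 and 22 of them. Itgb5 had 25 and 80 UMIs, against 1.77 and 28.4 at the core ratio, and 52 of the stressed UMIs lay in cells with 3 or more core UMIs. Itgav had 27 and 24 UMIs against 0.33 and 4.32, and Itga6 15 and 27 against 0.71 and 8.20.

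**Figure D4:**
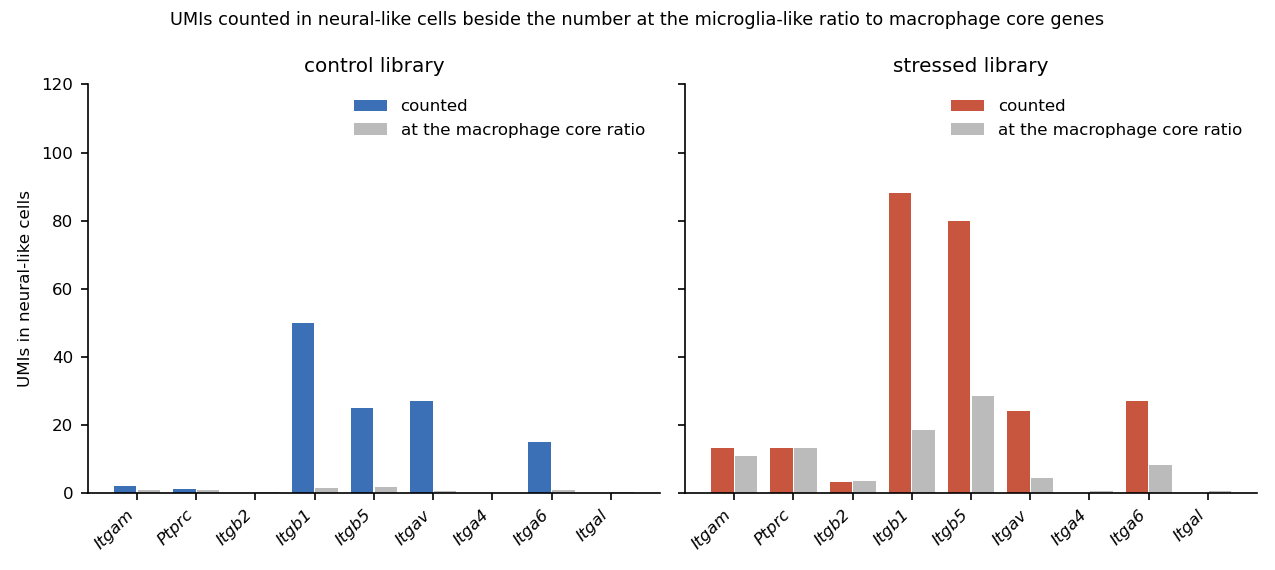
UMIs of each gene counted in neural-like cells beside the number given by the microglia-like ratio of that gene to 10 macrophage core genes, for the control and the stressed library. Itgb1 reaches 50 and 88 counted UMIs against 1.29 and 18.4 at the ratio, whereas Ptprc has 13 against 13.2 in the stressed library.

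Itgb1 was higher in progenitor-led than in neuron-led neural cells of both libraries, and so was Itgav with all barcodes. Itgb1 had 154 CPM (109 to 211) in 85 progenitor-led and 57.8 CPM (29.9 to 101) in 130 neuron-led control cells, a log2 ratio of neuron-led over progenitor-led cells of -1.41 (-2.48 to -0.45). In stressed cells it had 144 CPM (110.3 to 184) in 76 and 76.6 CPM (49.6 to 113) in 99 cells, a log2 ratio of -0.91 (-1.64 to -0.22). Itgav had 26 and 1 control UMIs in progenitor-led and neuron-led cells, 105 and 4.82 CPM, and 43.3 and 15.3 CPM in stressed cells, with log2 ratios of -4.45 (-9.81 to -1.84) and -1.498 (-3.28 to -0.03). Without the shared barcodes the ratios were -1.55 (-2.65 to -0.55) and -0.82 (-1.58 to -0.09) for Itgb1. For Itgav they were -3.77 (-9.19 to -1.01) in control and -0.62 (-2.58 to 1.17) in stressed cells, where the interval includes 0. The difference between the libraries was not tested.

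Itgb5 differed between these cells in the control library, with 97.2 CPM in progenitor-led and 4.82 CPM in neuron-led cells and a log2 ratio of -4.34 (-9.70 to -1.72). In the stressed library it had 100.2 and 110.3 CPM, a log2 ratio of 0.14 (-0.54 to 0.81) whose interval includes 0. Without the shared barcodes these were -3.88 (-9.29 to -1.15) and 0.14 (-0.58 to 0.86). Macrophage core genes in neuron-led cells were at 2.03% of the microglia-like level in control and 24.5% in stressed cells, and their part in the Itgb5 level was not tested. Itga6 had 32.4 and 33.7 CPM in control and 36.5 and 33.7 CPM in stressed progenitor-led and neuron-led cells.

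Between the libraries, 2 of the 3 genes of the set with 50 CPM in neural-like cells differed by 1.5 times, where 19.8% of all genes did. Itgb5 had a log2 ratio of 0.93 (0.26 to 1.64) and Itgav one of -0.92 (-1.78 to -0.07). The macrophage core genes were at 1.23% of the microglia-like level in control and 12.4% in stressed neural-like cells. Their part in these ratios was not tested. In cells with no core UMI, Itgb5 had 15 control and 12 stressed UMIs, 47.0 and 50.2 CPM, a log2 ratio of 0.10 (-1.13 to 1.29) whose interval includes 0. Itgav had 17 and 3 UMIs there, 53.2 and 12.6 CPM, a log2 ratio of -2.08 (-4.50 to -0.29). The values in cells with no core UMI include the shared barcodes and are not given without them. Without the shared barcodes, which left 207 control and 171 stressed cells, Itgav had 13 UMIs in each library and a ratio of -0.78 (-2.004 to 0.45), whose interval includes 0. Itgb5 then had 14 and 70 UMIs and a ratio of 1.55 (0.70 to 2.49), Itgb1 43 and 71 UMIs, Itgam 2 and 13, and Ptprc 1 and 12.

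The unnamed cluster led by haemoglobin and vessel genes had 2 control and 1 stressed UMIs of Itgam and 6 and 2 of Ptprc, with the macrophage core genes at 42.7% and 29.5% of the microglia-like level. Itgb1 had 207 CPM (123 to 328) and 159 CPM (108 to 226), and Itgb5 219 CPM (132 to 342) and 113 CPM (70.9 to 171). In the stressed library Itgav had 82.3 CPM (47.0 to 134) and Itga4 46.3 CPM (21.2 to 87.8), above microglia-like cells by log2 ratios of 0.85 (0.02 to 1.58) and 3.14 (1.87 to 4.27). In the control library Itgav had 3 and Itga4 2 UMIs, with log2 ratios of -0.77 (-3.07 to 0.82) and 2.20 (-1.04 to 4.48) whose intervals include 0. Between the libraries 3 of 5 genes differed by 1.5 times, where 58.7% of all genes did, at median depths of 1040 and 5639 UMIs. Of the 2769 genes tested 1399 were lower and 226 higher in stressed cells by 1.5 times. The median log2 ratio was -0.62 over these genes and -0.58 over the 5 genes of the set.

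Most other integrin chains were at or near 0 in microglia-like cells. Of 13 further alpha chain genes 5 had no UMI in either library and 1, Itgax, the alpha chain of complement receptor 4, reached 50 CPM. Itgax had 56.1 and 35.4 CPM in control and stressed cells and a log2 ratio of -0.66 (-1.02 to -0.30), past 1.5 times as were 4.51% of all genes. The next by control level were Itga9 with 19.4 and 18.7 CPM, Itga5 with 7.22 and 7.78 CPM and Itgae with 2.22 and 0.778 CPM. Of 7 further beta chain and related genes 3 had no UMI. Itgb1bp1, which encodes a protein that binds the tail of the Itgb1 chain, had 48.3 and 67.3 CPM with a log2 ratio of 0.48 (0.14 to 0.83), Itgb3 had 16.7 and 13.6 CPM, and Itgb4 had 1 and 0 UMIs.

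Other genes of integrin and Cd45 biology were counted in microglia-like cells against the 4.51% of all genes tested that differed by 1.5 times, a share at which 0 is a usual count for lists this short. Of 15 activation genes 9 reached 50 CPM and 0 differed by 1.5 times (4.51% of all genes), with a median log2 ratio of -0.11 beside -0.06 over all genes. Rap1b and Rap1a, small GTPases of integrin activation, had 325 and 338 CPM and 234 and 221 CPM. Apbb1ip, the Rap1 effector that recruits talin, had 202 and 188 CPM, and Rasgrp3, an exchange factor, 131 and 101 CPM with a log2 ratio of -0.37 (-0.59 to -0.14). Of 18 signalling genes 8 reached 50 CPM and 0 differed by 1.5 times (4.51% of all genes), with a median of -0.09. The Src family kinase gene Lyn had 255 and 273 CPM, the adaptor genes Lims1 and Parvg 133 and 118 CPM and 109 and 94.96 CPM, and the exchange factor gene Vav1 80.5 and 55.8 CPM with a log2 ratio of -0.53 (-0.82 to -0.23). Zyx (zyxin, a focal adhesion protein), named after its values were seen because its difference was the largest of these 8, had 57.2 and 38.9 CPM and a log2 ratio of -0.56 (-0.91 to -0.20).

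Of 14 genes around Cd45 6 reached 50 CPM, Lyn among them, and 0 differed by 1.5 times (4.51% of all genes), with a median log2 ratio of -0.12. Lgals1, a galectin that binds Cd45 sugars, had 737 and 514 CPM with a log2 ratio of -0.52 (-0.61 to -0.42). The phosphatase gene Ptpn6 had 113 and 113 CPM, and Csk, a kinase that opposes Cd45 on Src family kinases, 91.1 and 76.7 CPM. Of 27 integrin ligand genes 2 reached 50 CPM and 1 differed by 1.5 times (4.51% of all genes). Spp1 (osteopontin), a ligand of integrins with the Itgav chain, had 10183 control and 12669 stressed UMIs, 5656 and 2465 CPM, and a log2 ratio of -1.20 (-1.24 to -1.16). F11r, a junction protein bound by the Itgal and Itgb2 receptor, had 57.8 and 74.1 CPM with a log2 ratio of 0.36 (0.04 to 0.69). Icam1 and the laminin chain gene Lamb2, next by control level, had 37.8 and 29.2 CPM and 16.7 and 10.1 CPM.

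The genes most like each member were ranked among 4891 genes by Pearson's r of log2(CPM + 10) over 8 sums, 4 named classes in both libraries, as a description of sums that share library and depth. Itgam was closest to Apbb1ip (0.99), the talin recruiter named above, and to Tcirg1 (0.98) and Pip4k2a (0.97). Ptprc was closest to Fam49b, Gpx1 and Tnfrsf13b, each at 0.99, and Itgb2 to Gsdmd (0.99) and Tmem219 (0.98). With r from 0.97 to 0.99, they were Osbpl11, Tmem203 and Fnip2 for Itgb1, Ppcdc, Tubgcp5 and Tnfrsf21 for Itgb5, and Pds5a, Arf3 and Selenot for Itgav. In the same range they were Slk, Ifi203 and Wfdc17 for Itga4, Mfsd11, Pgam1 and Rapsn for Itga6, and Apobr, Gda and Sp100 for Itgal. An r above 0.9 was reached by 25 genes (0.511%) for Itgb5 and by up to 218 genes (4.46%) for Ptprc.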

How the data were processed

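The deposited matrices give raw UMI counts for each gene in each called cell, 1 matrix for each of 2 samples. The submitters' processing notes name STAR, Cell Ranger 3.0.0, Seurat 2.4 and GRCm38.p5 (mm10) without their roles, and strand handling is not given in the sources used here. The 9 genes and all gene lists were chosen with earlier results of these data known. Cells needed 500 genes and no more than 10% of UMIs from mitochondria, which removed 88 control and 48 stressed barcodes for few genes and 0 and 12 for mitochondria. Cells of both libraries were clustered in scanpy 1.11.5 (2000 variable genes without the 9 genes, Xist, Tsix and Y-linked genes; 30 components; 15 neighbours; Leiden resolution 0.5), and neural-like cells were split by clusters at resolution 1. The marker gate left out 11 control and 6 stressed cells. Scrublet's own threshold called 2 and 3 cells, so doublets were kept, and an alternative removed the highest 3.5% of scores.

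Counts were summed by class and library and scaled to CPM. Sums have exact Poisson, ratios exact conditional and shares Clopper-Pearson intervals, at 95%. A sum of 0 enters a ratio as 3 counts, and every limit printed for a count of 0 is likewise 3 counts of the total, below the upper end of a exact interval. Genes with at least 50 CPM on either side were counted at 1.5 times between libraries and between clusters, at 2 times for border-associated cells and at 4 times for other classes. The text names the 9 genes, the 3 genes most like each (1 of them is not reported here), and of each list up to 4 genes by control level and those past 1.5 times. The ratio step was tested on simulated counts. edgeR 4.0.16 (TMM) and DESeq2 1.42.0 gave alternative scalings. The split of neural-like cells by macrophage core UMIs and the removal of shared barcodes were chosen after seeing the data. Of 31053 gene identifiers 31011 were found in GENCODE M21.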

Additional observations from a re-analysis of the deposited data

How the results depend on the processing

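The log2 ratio of Itgam in microglia-like cells, -0.20, became 0.073 when cells needed 1000 genes and no more than 5% of UMIs from mitochondria, and 0.14 in cells with Xist and no Y-linked UMI. Over the alternatives run it ranged from -0.26 to 0.14, Ptprc from -0.28 to 0.06, Itgb5 from -0.20 to 0.17 and Itga6 from -0.70 to -0.44. None of the 9 genes differed by 1.5 times in the main setting. The share of 4.51% of all genes tested covers the 2659 that reached 50 CPM, which Itgb2, Itga4 and Itgal did not. Counted over the 9 genes with no minimum level, the number was 1 for means of CPM taken cell by cell (Itgal, -0.86). The count was 2 after thinning to 1000 UMIs (Itga4, 1.52, and Itgal, -2.54). It was 2 in cells with Xist and no Y-linked UMI (Itga4, -0.82, and Itga6, -0.70). Leaving out the top 1% of cells by UMIs of each gene gave 1 (Itga4, 1.19), and the lower fold limit tried gave 2 (Itgav, -0.37, and Itga6, -0.55). The share of all genes is not given for these alternatives. For Ptprc in neural-like over microglia-like cells, thinning gave -3.47 in the control library, where 0 UMIs entered as 3 counts (-6.11 without thinning), and means taken cell by cell gave -3.96 in the stressed library (-3.03 from sums). The causes were not tested. The count of all genes past 1.5 times was 120 of 2659, and 382 of 5366 from 20 CPM on, 55 of 1377 from 100 CPM on and 5039 of 15052 without a minimum. Without the shared barcodes the microglia-like ratios of Itgam and Ptprc were -0.20 and -0.13. No paired analysis was possible because each condition has 1 library, and for the same reason no library could be left out. Depth limits Itga4 and Itgal in microglia-like cells and all 9 genes in classes of under 100 cells.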
